A study of Mus musculus with 16 samples.

Results

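The 34 genes described here bring pyruvate into the mitochondrion and turn it into acetyl-CoA, run the tricarboxylic acid (TCA) cycle, feed the cycle from glutamate, move citrate out of the mitochondrion and make itaconate. They were listed by function, and the rule used no measured value, but the list was chosen with earlier results of these data known. All 34 were among the 55604 genes listed in the count tables, and all 34 passed the filter, a minimum of 10 counts in 4 or more of the 8 libraries, which left 16861 genes to test.

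RNA was measured in tumor-associated macrophages (TAMs) from the peritoneal cavity of C57BL/6 mice that carried ID8, a mouse ovarian epithelial cancer cell line injected into the peritoneum, and the compared subsets were Tim-4+ TAMs and Tim-4- TAMs. Tim-4, the product of *Timd4*, is a phosphatidylserine receptor found on resident macrophages of the peritoneum. Each subset had 4 libraries, paired across subsets by the numbers 793, 784, 783 and 779 in the labels, and each library was sequenced in 2 lanes that were summed. Total counts on genes were 53527928 to 57768202 per library in Tim-4+ TAMs and 55618306 to 69594245 in the Tim-4- fraction.

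All mice bore tumors, and neither subset carried an engineered allele or a drug treatment in the labels. Per the study's methods, the mice were female, a Ficoll gradient took away most tumor cells and dead cells, Tim-4+ cells were pulled out with a PE-labeled anti-Tim-4 antibody and magnetic beads, and Tim-4- TAMs were then enriched with anti-F4/80 beads from the cells left behind. The study also describes the sequenced subsets as sorted, and whether a cytometer was used for them is not given in the sources used here. The labels do not say whether a pair number stands for 1 mouse or for a pool of mice, so the p values refer to these 4 pairs. Those of edgeR's quasi-likelihood test also draw the variance of each gene toward that of other tested genes.

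*Timd4* was checked first. Tim-4+ TAMs had 55230, 87151, 28683 and 56050 counts of it in pairs 793, 784, 783 and 779, and their Tim-4- partners had 5669, 814, 1747 and 128, so the subsets did not overlap. The log2 ratio within a pair was smallest in pair 793, at 3.77, and largest in pair 779, at 9.21. The 9 macrophage markers summed to 44780 to 57319 CPM (counts relative to library size, which was scaled with TMM factors) in Tim-4+ TAMs and to 21537 to 34477 CPM in the Tim-4- fraction, and 6 of them rose in Tim-4+ TAMs while 1, *Mrc1*, fell (edgeR's quasi-likelihood test, adjusted p under 0.05). Of 10 epithelial tumor and mesothelial markers, 9 fell in Tim-4+ TAMs, and their summed level was 108 to 398 CPM in Tim-4+ TAMs and 424 to 1961 CPM in the Tim-4- fraction. None of these 10 markers was at 0 in any library. Mast cell markers summed to 3.28 to 15.6 CPM in Tim-4+ TAMs and to 19.1 to 62.1 CPM in the Tim-4- fraction, and fibroblast markers to 19.5 to 90.1 and 49.9 to 173 CPM. Markers of T and NK cells, B cells, granulocytes, dendritic cells and endothelial cells each summed to at most 22.9 CPM in every library, and erythroid markers ranged from 0.020 to 237 CPM and were highest in both libraries of pair 783. Within pairs 793, 784, 783 and 779 the macrophage marker sum had log2 ratios of 0.73, 1.06, 0.59 and 1.23. The sums of macrophage, of epithelial and mesothelial and of mast cell markers thus moved with the subset beside every result below. The part of these cells in those results was not tested. In bulk RNA, fewer cells of a type and less RNA per cell cannot be told apart.

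Pyruvate made by glycolysis enters the mitochondrion through the pyruvate carrier and is converted to acetyl-CoA by the pyruvate dehydrogenase complex, which kinases switch off and phosphatases switch on. In the TCA cycle, acetyl-CoA joins oxaloacetate to make citrate, which is oxidized stepwise back to oxaloacetate while electrons pass to the respiratory chain, and citrate that leaves the mitochondrion supplies cytosolic acetyl-CoA for lipid synthesis. Activated macrophages divert the citrate branch toward itaconate, which the enzyme ACOD1 makes from cis-aconitate. Itaconate inhibits succinate dehydrogenase and has antibacterial and anti-inflammatory actions.

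The promoters of *Acod1*, *Acly* and *Idh1* are shown because these were the members with the largest rise among those that passed the test. The sequences are from RefSeq on GRCm38.p6 and run 5′ to 3′ on the strand of the gene from 250 bases before to 50 bases after the start site, at chr14:103046762-103047061 for *Acod1* (plus strand), chr11:100527951-100528250 for *Acly* (minus strand) and chr1:65186430-65186729 for *Idh1* (minus strand). Capitals mark matches to CCAAT, to TATAAA and to GGGCGG, the GC box, on either strand.
Acod1: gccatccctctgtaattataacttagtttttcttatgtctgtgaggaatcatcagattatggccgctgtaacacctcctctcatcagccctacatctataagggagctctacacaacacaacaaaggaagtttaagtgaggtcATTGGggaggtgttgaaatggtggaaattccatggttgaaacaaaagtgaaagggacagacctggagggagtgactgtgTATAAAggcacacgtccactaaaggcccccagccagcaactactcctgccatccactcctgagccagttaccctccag
Acly: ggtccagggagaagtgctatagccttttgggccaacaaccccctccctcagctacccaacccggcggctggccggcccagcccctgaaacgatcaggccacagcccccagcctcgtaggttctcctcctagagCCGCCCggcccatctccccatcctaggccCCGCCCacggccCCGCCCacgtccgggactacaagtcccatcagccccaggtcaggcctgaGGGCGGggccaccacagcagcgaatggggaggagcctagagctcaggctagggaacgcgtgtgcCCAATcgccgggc
Idh1: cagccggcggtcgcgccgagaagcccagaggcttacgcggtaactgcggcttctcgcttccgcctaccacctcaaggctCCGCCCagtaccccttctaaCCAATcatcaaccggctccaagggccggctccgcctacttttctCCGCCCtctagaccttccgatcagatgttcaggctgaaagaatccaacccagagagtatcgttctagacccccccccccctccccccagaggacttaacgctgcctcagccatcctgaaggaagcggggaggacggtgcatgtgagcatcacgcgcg

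*Acod1* had a TATAAA match 28 bases before the start and a CCAAT match 107 bases before it, and no GC box. *Acly* had 4 GC boxes, at 117, 88, 76 and 27 bases before the start, and a CCAAT match 37 bases after it. *Idh1* had GC boxes 171 and 107 bases before the start and a CCAAT match 151 bases before it. Promoters were listed for 31 of the 34 genes, and not for *Pdp1*, *Idh3a* and *Me2*. GGGCGG was found in 23 of the 31 (74.2%) and in 35.7% of all 32851 promoters, CCAAT in 20 of the 31 (64.5%) and in 37.4% of all, and TATAAA in 1 of the 31, *Acod1*, and in 13.6% of all. Of the other 7 motifs searched, on both strands, TGACGTCA was in the promoters of *Mdh2* and *Ogdh* (1.79% of all promoters), AGATAA in those of *Dld* and *Pdk4* (11.2% of all), the interferon-stimulated response element type in that of *Suclg2* (3.44% of all) and the NF-kappa-B type in that of *Dlat* (1.63% of all). TCACCCCAC, TCAAGGTCA and the NRF1 element were in 0 of the 31 and in 0.551%, 0.423% and 0.971% of all. The members were read at 1 promoter per gene, whereas the 32851 promoters were not limited to 1 per gene or to tested genes, so the 2 shares are of unlike sets. Motif matches are letters in a window and were not tested for binding.

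**Figure D1:**
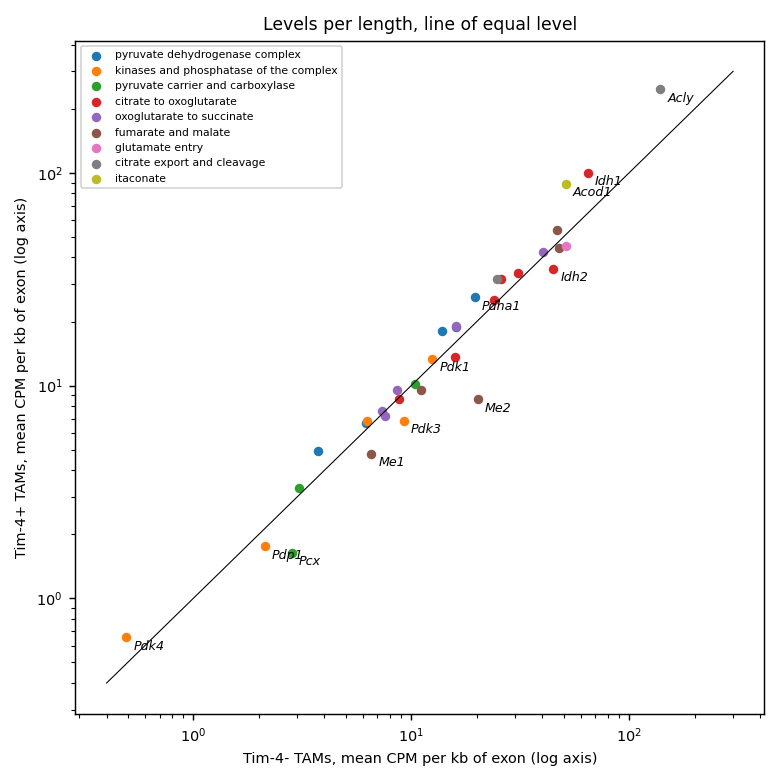
Level of each of the 34 genes per length, as mean CPM per kb of exon over the 4 libraries of a subset, with Tim-4- TAMs on the horizontal axis and Tim-4+ TAMs on the vertical axis, both logarithmic. Points above the line of equal level are higher in Tim-4+ TAMs. *Acly* was highest in both subsets and *Pdk4* lowest, and *Me2* lay farthest below the line.

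The 34 genes spanned a wide range of levels, as the plot of levels per length shows. Per kb of exon, the mean over all 8 libraries was highest for *Acly*, at 193 CPM per kb, followed by *Idh1* at 82.3, *Acod1* at 70.1, *Mdh2* at 50.1 and *Glud1* at 48.2 CPM per kb. It was lowest for *Pdk4*, at 0.573 CPM per kb, followed by *Pdp1* at 1.94 and *Pcx* at 2.24 CPM per kb. The rank of *Acod1* rested on pair 784, without which it was at 34.3 CPM per kb, below *Glud1*, *Mdh1*, *Mdh2*, *Idh2* and *Ogdh*.

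Of the 34 genes, 5 were higher in Tim-4+ TAMs, 1 was lower, and 28 did not pass the test (edgeR's quasi-likelihood test with the pair as a block, Benjamini-Hochberg adjusted p under 0.05 over all 16861 genes). These 6 are 17.6% of the members, where 17.4% of all tested genes passed. The 5 higher genes, *Acod1*, *Idh1*, *Acly*, *Pdha1* and *Pdhb*, are 14.7% of the members, beside 8.97% of all genes, and the lower gene, *Me2*, is 2.94%, beside 8.43% of all genes. With a change of at least 2-fold as a second condition, no member was higher and only *Me2* was lower, where 3.80% and 5.79% of all genes were. The share of members that passed was thus near that of all genes.

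Calls were few among all genes without the block or without pair 784. Without the pair block 1.38% of all genes and no member passed (4 were higher and 2 lower at an unadjusted p under 0.05), and the adjusted p by edgeR's quasi-likelihood test was 0.652 for *Acod1*, 0.163 for *Idh1*, 0.0818 for *Acly*, 0.116 for *Pdha1*, 0.405 for *Pdhb* and 0.0826 for *Me2*. With pair 784 left out 0.937% of all genes and no member passed (5 were higher and 1 lower at an unadjusted p under 0.05), with adjusted p by the same test of 0.0604, 0.0959, 0.130, 0.1003, 0.162 and 0.126 in the same order of genes. Their log2 fold changes without that pair were 1.12, 0.60, 0.80, 0.41, 0.33 and -1.15, beside 0.98, 0.68, 0.87, 0.41, 0.38 and -1.27 with all 4 pairs. *Pdha1* did not pass with any 1 of the 4 pairs left out. The direction of all 6 was unchanged in these fits.

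For all 6 of these genes, the 4 pairs moved one way. Over the 34 genes the log2 fold changes had a median of 0.08, that of all tested genes was near 0, and 21 of the 34 lay above 0. The median of the members was 0.09, 0.18, 0.06 and -0.006 in pairs 793, 784, 783 and 779. In 3 members (*Pdha1*, *Idh1* and *Acly*) every Tim-4+ library was above every Tim-4- library, and in 2 (*Idh2* and *Fh1*) every Tim-4+ library was below. These are 8.82% and 5.88% of the members, where 6.84% and 5.92% of all genes were so separated. Scaled to total counts instead of TMM, the median of all genes moved to -0.36, 3 members (*Idh1*, *Acly* and *Acod1*) were higher and 8 were lower, where 4.68% of all genes were higher and 29.1% lower, and higher genes made up 13.9% of all calls instead of 51.6%. The 8 lower members were *Pdk3*, *Aco1*, *Idh2*, *Idh3a*, *Fh1*, *Mdh1*, *Me2* and *Glud1*, of which only *Me2* was also lower with TMM.

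**Figure D2:**
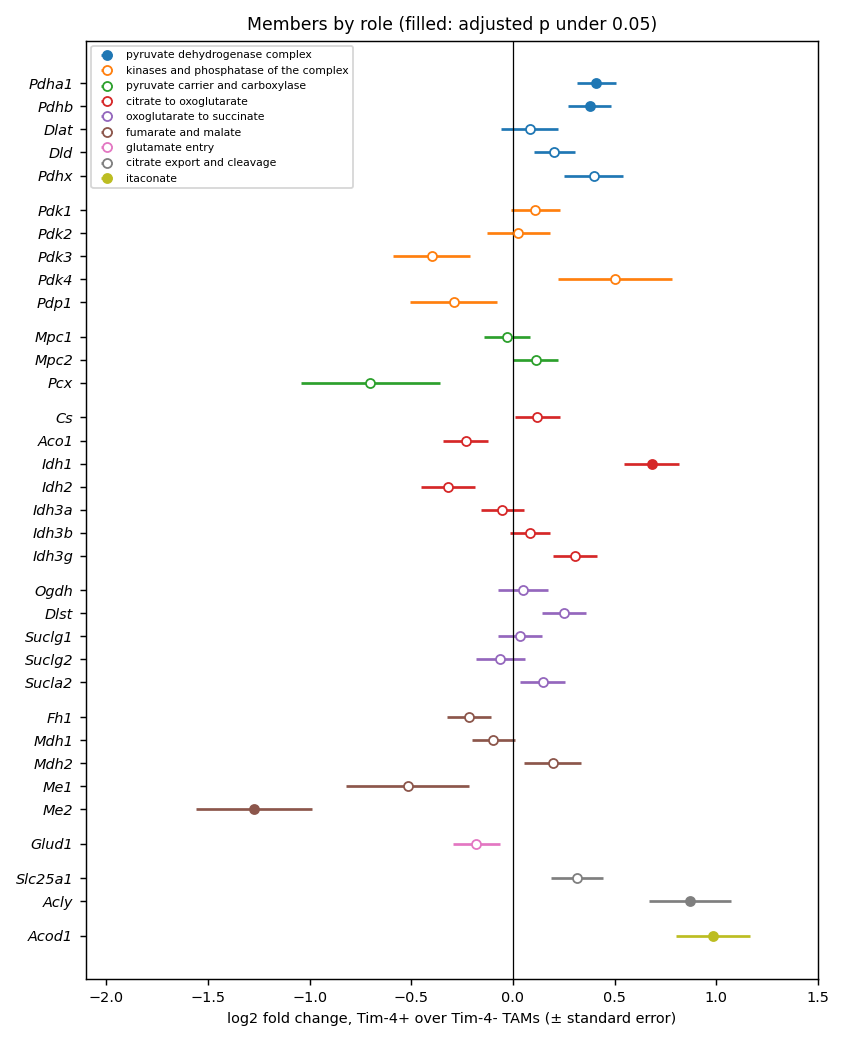
Log2 fold change of each of the 34 genes, Tim-4+ over Tim-4- TAMs, grouped and colored by role, with its standard error from the fit with the pair as a block (4 pairs). Filled points passed an adjusted p of 0.05. The 5 filled points above 0 are *Pdha1*, *Pdhb*, *Idh1*, *Acly* and *Acod1*, and the filled point below 0 is *Me2*.

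*Acod1* encodes aconitate decarboxylase 1, the enzyme that makes itaconate (ENSMUSG00000022126.6, chromosome 14, 103046977 to 103056573 in GRCm38, plus strand). In Tim-4+ TAMs of pairs 793, 784, 783 and 779 it was at 86.1, 558, 87.0 and 203 CPM, and in Tim-4- TAMs of the same pairs at 56.0, 375, 38.1 and 69.2 CPM. Both libraries of pair 784 stood above those of every other pair, so the subsets overlapped, but Tim-4+ TAMs were higher within each pair. The log2 ratios were 0.62, 0.57, 1.19 and 1.55. *Acod1* was 1.98-fold higher in Tim-4+ TAMs, a log2 fold change of 0.98 (SE 0.18, 95% interval 0.56 to 1.41, adjusted p = 0.0145 by edgeR's quasi-likelihood test).

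Without the pair block its log2 fold change was 0.79 (SE 0.83, adjusted p = 0.652 by edgeR's quasi-likelihood test), and with pair 784 left out it was 1.12 (SE 0.19, adjusted p = 0.0604 by the same test, with the block).

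Genes that are induced together with *Acod1* in activated macrophages were read beside it. Of 13 such genes, 5 were higher in Tim-4+ TAMs and 1 was lower, where 8.97% and 8.43% of all tested genes were. Their median log2 fold change was 0.68. The list was chosen with earlier results of these data known. The higher genes were *Il6* (log2 fold change 2.91), *Ptgs2*, which encodes cyclooxygenase-2 (2.28), the acute-phase gene *Saa3* (1.70), the interferon regulator *Irf7* (1.13) and *Sod2*, the mitochondrial superoxide dismutase (0.68). The lower gene was the interferon-gamma-induced chemokine *Cxcl9* (-0.88). The values of the genes that did not pass were 1.03 for *Nos2*, 0.79 for *Socs3*, 0.57 for *Il1b*, 0.51 for *Tnf*, 0.26 for *Cd40*, 0.03 for *Irf1* and -0.09 for *Cxcl10*.

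Pair 784, which was high in *Acod1*, was also high in 3 of these genes in both subsets. In its Tim-4+ and Tim-4- libraries *Nos2* was at 54.6 and 14.9 CPM, *Sod2* at 743 and 442 CPM, and *Irf7* at 1070 and 415 CPM, each the highest of its subset. *Il6* was instead highest in pair 793 in both subsets, at 100.3 CPM in Tim-4+ and 28.4 CPM in Tim-4- TAMs.

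Among 5 genes that handle itaconate and succinate, 4 were tested and none passed (*Clybl*, which degrades citramalyl-CoA formed from itaconate, 0.27; *Mut*, methylmalonyl-CoA mutase, 0.01; and its cobalamin-handling partners *Mmaa* 0.34 and *Mmab* -0.20). The count tables listed no reads for the succinate receptor gene *Sucnr1* in any library.

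**Figure D3:**
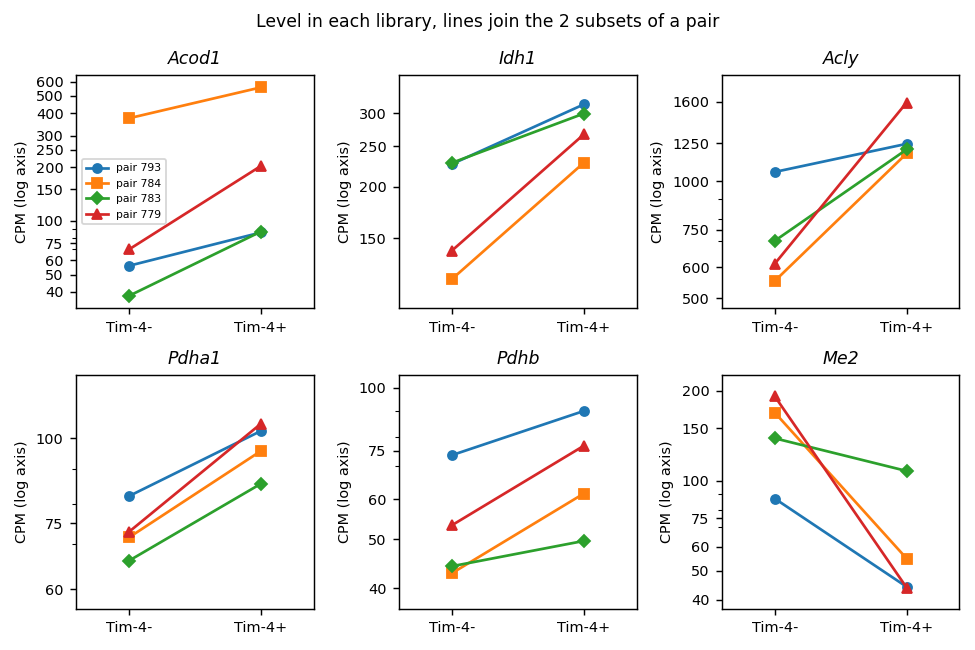
Level of the 6 genes that passed the test in each of the 8 libraries, in CPM on a logarithmic axis with its own range in each panel, with a line joining the Tim-4- and Tim-4+ libraries of a pair. All lines rise except those of *Me2*, which all fall, and both *Acod1* values of pair 784 lie above the other pairs.

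The pyruvate dehydrogenase complex had 2 of its 5 genes higher in Tim-4+ TAMs. *Pdha1* and *Pdhb* encode the alpha and beta subunits of its pyruvate-oxidizing enzyme. *Pdha1* (ENSMUSG00000031299.10, chromosome X, 160122209 to 160138413) was at 102, 95.8, 85.7 and 105 CPM in Tim-4+ TAMs of pairs 793, 784, 783 and 779 and at 82.2, 71.5, 66.1 and 72.8 CPM in the Tim-4- fraction, so the lowest Tim-4+ library was above the highest Tim-4- library. Its log2 fold change was 0.41 (SE 0.10, adjusted p = 0.0275 by edgeR's quasi-likelihood test), or 1.33-fold. Its exons share 603 of 3734 bases with *Map3k15* on the opposite strand, and whether the counting used strand is not given in the sources used here.

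*Pdhb* (ENSMUSG00000021748.9, chromosome 14, 8165996 to 8173025) was at 89.9, 61.6, 49.6 and 76.7 CPM in Tim-4+ TAMs and at 73.5, 42.8, 44.2 and 53.3 CPM in the Tim-4- fraction, in the same order of pairs. The subsets overlapped, but Tim-4+ TAMs were higher in every pair. The log2 fold change was 0.38 (SE 0.11, adjusted p = 0.0480 by edgeR's quasi-likelihood test), or 1.30-fold.

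The other three genes of the complex had values of 0.40 (*Pdhx*, the binding protein of its dihydrolipoamide dehydrogenase, SE 0.15, adjusted p = 0.0971 by edgeR's quasi-likelihood test), 0.20 (*Dld*, that dehydrogenase) and 0.08 (*Dlat*, its acetyltransferase). All 5 genes lay above 0, with a median of 0.38, but *Dld* and *Dlat* lay below 0, at -0.15 and -0.28, when libraries were scaled to total counts, and *Pdha1* and *Pdhb* were then at 0.05 and 0.02 and did not pass.

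None of the 4 pyruvate dehydrogenase kinases, which switch the complex off, passed the test, nor did the phosphatase gene *Pdp1*. *Pdk1* had the highest mean level per length of the kinase genes in both subsets, and its log2 fold change was 0.11 (95% interval -0.16 to 0.39). *Pdk2* was at 0.03, *Pdk3* at -0.40, *Pdk4* at 0.50 and *Pdp1* at -0.29. Per kb of exon, *Pdk1* made up 47.9% ± 2.16 (SD, n = 4) of the kinase transcripts in Tim-4+ TAMs and 43.1% ± 10.9 in the Tim-4- fraction. *Pdk3* made up 26.2% ± 7.94 and 33.4% ± 12.1, and *Pdk4* made up 2.49% ± 2.30 and 1.76% ± 1.71. In the Tim-4- fraction, *Pdk3* was above *Pdk1* in pair 784 (47.6% against 36.9%) and in pair 779 (39.2% against 31.6%). *Pdk4*, a gene induced by fasting and fatty acids, had only 15 to 246 counts per library, and its level differed more between pairs than between subsets. It was at 3.89, 0.5002, 0.384 and 4.43 CPM in Tim-4+ TAMs and at 2.503, 0.424, 0.191 and 3.78 CPM in the Tim-4- fraction, high in pairs 793 and 779 and low in pairs 784 and 783 in both subsets.

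The genes of the mitochondrial pyruvate carrier did not pass the test. *Mpc1* had a log2 fold change of -0.03 (95% interval -0.29 to 0.24) and *Mpc2* one of 0.11 (-0.15 to 0.37). *Mpc1* shares 480 of its 2082 exon bases with *4930506C21Rik* on the opposite strand and has a named pseudogene, *Mpc1-ps*.

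*Pcx* encodes pyruvate carboxylase, which refills the cycle with oxaloacetate. It was at 8.66, 6.76, 9.96 and 5.78 CPM in Tim-4+ TAMs of pairs 793, 784, 783 and 779 and at 8.17, 11.9, 11.0 and 22.8 CPM in the Tim-4- fraction. The pairs did not move together, since the log2 ratio was 0.08 in pair 793 and -1.96 in pair 779. The log2 fold change was -0.70 with the widest interval of the members that did not pass (95% interval -1.52 to 0.12, adjusted p = 0.206 by edgeR's quasi-likelihood test).

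In the stretch from citrate to 2-oxoglutarate, 1 of 7 genes passed the test. *Idh1* encodes the isocitrate dehydrogenase of the cytosol and peroxisome, which makes NADPH (ENSMUSG00000025950.16, chromosome 1, 65158616 to 65186500, minus strand). It was at 315, 228, 299.6 and 267 CPM in Tim-4+ TAMs of pairs 793, 784, 783 and 779 and at 226, 120, 228 and 140 CPM in the Tim-4- fraction. The subsets did not overlap, although the lowest Tim-4+ library, of pair 784, was barely above the highest Tim-4- library, of pair 783. The log2 fold change was 0.68 (SE 0.14, adjusted p = 0.0174 by edgeR's quasi-likelihood test), or 1.60-fold.

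*Idh2*, the mitochondrial enzyme that also makes NADPH, lay on the other side of 0, with a log2 fold change of -0.32 (SE 0.13, adjusted p = 0.133 by edgeR's quasi-likelihood test). It ranged from 78.1 to 101 CPM in Tim-4+ TAMs and from 102 to 152 CPM in the Tim-4- fraction, so the subsets did not overlap although the gene did not pass. The highest Tim-4- value was that of pair 779. Subunits of the NAD-dependent mitochondrial enzyme had values of -0.05 (*Idh3a*, the catalytic subunit), 0.08 (*Idh3b*) and 0.31 (*Idh3g*, adjusted p = 0.0886 by edgeR's quasi-likelihood test). *Cs*, citrate synthase, was at 0.12 and *Aco1*, the cytosolic aconitase that also binds iron-responsive elements, was at -0.23.

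From 2-oxoglutarate to succinate none of 5 genes passed. *Dlst*, the succinyltransferase of the 2-oxoglutarate dehydrogenase complex, was at 0.25 (95% interval -0.003 to 0.50), and *Ogdh*, the decarboxylase of the same complex, was at 0.05. The shared subunit of succinyl-CoA ligase, *Suclg1*, was at 0.03, its GTP-forming partner *Suclg2* at -0.06 and its ATP-forming partner *Sucla2* at 0.15. In the rest of the cycle, 0 of 17 tested genes were higher and 2 were lower, where 8.97% and 8.43% of all tested genes were. The subunits of succinate dehydrogenase (*Sdha* 0.13, *Sdhb* -0.01, *Sdhc* -0.17, *Sdhd* -0.14) did not pass. One of the lower genes was *Pck2*, the mitochondrial phosphoenolpyruvate carboxykinase (-0.58, adjusted p = 0.0261 by edgeR's quasi-likelihood test).

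Among the 5 fumarate and malate genes, 4 lay below 0 and 1 passed the test. *Me2* encodes the mitochondrial malic enzyme, which turns malate into pyruvate (ENSMUSG00000024556.3, chromosome 18, 73769903 to 73815449, minus strand). It was at 44.1, 54.9, 108 and 43.9 CPM in Tim-4+ TAMs of pairs 793, 784, 783 and 779 and at 87.1, 169, 139 and 192 CPM in the Tim-4- fraction. Tim-4+ TAMs were lower in every pair, and the subsets overlapped only because the Tim-4+ library of pair 783 was above the Tim-4- library of pair 793. *Me2* fell by 1.27 on the log2 scale (SE 0.28, adjusted p = 0.0305 by edgeR's quasi-likelihood test), and was thus 2.42-fold lower in Tim-4+ TAMs, the largest change among the 34 genes.

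The ratio of *Me2* within pairs 793, 784, 783 and 779 was -0.98, -1.62, -0.36 and -2.12 on the log2 scale. The summed epithelial tumor and mesothelial markers had ratios of -1.97, -2.70, -1.16 and -3.13 in the same pairs, in the same order of size, and the mast cell markers had ratios of -2.54, -3.05, -0.35 and -2.61. The order was not particular to the epithelial and mesothelial markers. The macrophage markers, at 0.73, 1.06, 0.59 and 1.23, had the same order of size in the other direction. The fibroblast markers, at -1.36, -2.20, 0.17 and -2.80, had it too. The part of any of these cells in the lower level of *Me2* was not tested.

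The other genes of this group did not pass. *Me1*, the cytosolic malic enzyme, was at -0.52 (95% interval -1.25 to 0.21), with pair ratios from -1.55 in pair 779 to 0.42 in pair 783. *Fh1*, fumarase, was at -0.21 and was lower in all 4 pairs, at 29.98 to 33.7 CPM in Tim-4+ TAMs and 36.3 to 40.8 CPM in the Tim-4- fraction. The malate dehydrogenases were at -0.10 (*Mdh1*, cytosolic) and 0.20 (*Mdh2*, mitochondrial). *Mdh1*, *Me1* and *Idh3b* share 52, 30 and 5 exon bases with genes on the opposite strand. *Glud1*, glutamate dehydrogenase, which feeds glutamate carbon into the cycle, was at -0.18 (95% interval -0.45 to 0.09).

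**Figure D4:**
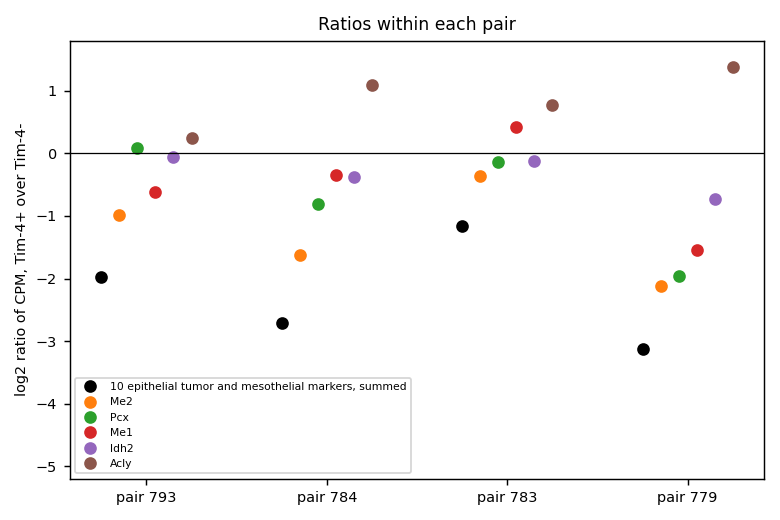
Log2 ratio of CPM, Tim-4+ over Tim-4- TAMs, within each of the 4 pairs, for *Me2*, *Pcx*, *Me1*, *Idh2*, *Acly* and the sum of 10 epithelial tumor and mesothelial markers. The marker sum lies below 0 in every pair and lowest in pair 779, *Me2* follows it in the same order of pairs, and *Acly* lies above 0 in every pair. The sums of macrophage and of fibroblast markers, not drawn, had the same order of size.

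Genes of glutamine, glutamate and aspartate metabolism were read beside *Glud1*. In Tim-4+ TAMs 2 of 17 tested were higher and 3 were lower, where 8.97% and 8.43% of all tested genes were. Of the 17, 15 lay below 0, with a median of -0.33, beside a median of -0.0012 for all tested genes. *Glul*, glutamine synthetase, was higher, at 549 to 1649 CPM in Tim-4+ TAMs and 217 to 696 CPM in the Tim-4- fraction (log2 fold change 1.01, SE 0.21, adjusted p = 0.0196 by edgeR's quasi-likelihood test). *Adss*, adenylosuccinate synthetase, was also higher (0.38). Lower were asparagine synthetase *Asns* (-1.77), alanine aminotransferase *Gpt* (-1.60) and the glutamine transporter *Slc38a1* (-0.91). The share of these 17 genes below 0 stands beside 13 of 34 members, and it was not tested.

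Citrate export and cleavage had 1 of 2 genes higher. *Acly* encodes ATP-citrate lyase, which splits exported citrate into oxaloacetate and the acetyl-CoA used for fatty acid and sterol synthesis (ENSMUSG00000020917.17, chromosome 11, 100476353 to 100528000, minus strand). It was at 1247, 1178, 1206 and 1593 CPM in Tim-4+ TAMs of pairs 793, 784, 783 and 779 and at 1056, 554, 703 and 614 CPM in the Tim-4- fraction. The subsets did not overlap, with pair 793 closest and pair 779 farthest apart. The log2 fold change was 0.87 (SE 0.20, adjusted p = 0.0259 by edgeR's quasi-likelihood test), or 1.83-fold. Pair 793, with the smallest *Acly* ratio (0.24), was also the pair with the smallest *Timd4* ratio, and the part of *Timd4*-expressing cells left in its Tim-4- library was not tested.

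*Slc25a1*, the mitochondrial citrate carrier, was at 0.32 (SE 0.13, adjusted p = 0.123 by edgeR's quasi-likelihood test) and was higher in 3 of 4 pairs. *Acaca*, acetyl-CoA carboxylase, which uses the acetyl-CoA that ATP-citrate lyase makes, was higher in Tim-4+ TAMs in every pair, at 142 to 218 CPM and 67.9 to 122 CPM (log2 fold change 0.97, SE 0.15, adjusted p = 0.00985 by edgeR's quasi-likelihood test).

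Ratios between genes of related roles, which do not depend on the scaling of the libraries, were compared within pairs for 14 pairs of genes. The smallest p that an exact two-sided sign-flip permutation test can give over 4 pairs is 0.125, so no ratio could pass 0.05, and the lowest adjusted p over the 14 was 0.175. In 10 of the 14 all 4 pairs moved the same way, each at p = 0.125 by this exact test. Some of these ratios hold a gene that by itself moved one way in all 4 pairs, such as *Idh1*, *Acod1*, *Me2* or *Pdha1*. In others 1 pair was close to 0, at -0.0031 for *Mdh1* over *Mdh2* and 0.038 for *Sucla2* over *Suclg2*. The ratio of *Idh1* to *Idh2* was 1.004 ± 0.57 higher on the log2 scale (mean difference ± SD over the 4 pairs, as below), with 0.59 ± 0.63 in the Tim-4- fraction and 1.59 ± 0.057 in Tim-4+ TAMs, where the libraries were much closer to each other. The ratio of *Pcx* to *Pdha1*, the carboxylase against the dehydrogenase for pyruvate, differed by -1.12 ± 1.01, and that of *Acod1* to *Idh3a* by 1.04 ± 0.63. *Me1* over *Me2* differed by 0.75 ± 0.39, *Idh3a* over *Idh3g* by -0.36 ± 0.11 and *Mdh1* over *Mdh2* by -0.29 ± 0.28. The other one-way differences described here were those of *Pdk4* over *Pdk2* (0.50 ± 0.18, but -0.027 with only the lane 2 counts), *Pdk1* over *Pdp1* (0.41 ± 0.39) and *Sucla2* over *Suclg2* (0.21 ± 0.19).

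For the 28 members that did not pass, log2 fold changes lay between -0.70 (*Pcx*) and 0.50 (*Pdk4*). In this fit, with TMM scaling and the pair block, the 95% interval stayed within 0.5 on either side of 0 for 17 of them and within 1 for 25. A 2-fold difference thus lay outside the interval of 25 of the 28 under that scaling. Intervals reached beyond 1 for *Pdk4*, *Pcx* and *Me1*. Scaled to total counts, the median of the 34 members was -0.28 instead of 0.08, so the values depend on the scaling. *Pdk3*, *Idh2* and *Pdp1* were then at -0.76 (SE 0.24), -0.68 (SE 0.16) and -0.65 (SE 0.23).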

How the data were processed

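The authors deposited raw counts per gene, 1 table per lane (16 lane files). Per the labels, the submitters' processing notes name FastQC 0.11.3, TopHat2 2.0.13, Cufflinks and Cuffdiff 2.2.1, with GRCm38 (mm10), whereas the study's methods name a human build. The read counter and its strand setting are not given in the sources used here. Reads with several hits, no gene or an ambiguous gene were set aside (18.9% in lane 2 of the Tim-4- library of pair 779, 29.8% to 32.9% in the other 14 lanes listing them), so near-identical copies may be undercounted. The 2 lanes of a library were summed. Lane 1 of the Tim-4- library of pair 793 is listed by symbol, and it was joined by row after the displaced *Timd4* row was put back (96.9% of 53618 symbols equal to GENCODE M21). Gene coordinates and exon lengths came from that annotation (98.6% of IDs matched).

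Genes reaching 10 counts in 4 or more of the 8 libraries were fitted in R 4.3.3 with edgeR 4.0.16 (TMM, robust quasi-likelihood test, pair as a block, Benjamini-Hochberg). The standard error is the log2 fold change divided by the root of F. Paired libraries' deviations from the subset means correlated at 0.277 to 0.498, above 0.1 in all 4 pairs, so the numbers were taken to pair the libraries. All 34 members are named, with all library values for those at adjusted p under 0.05. Alternatives used DESeq2 1.42.0, other scalings, filters and lanes, no block, and each pair left out. Single values of 3 genes outside the 34, and 1 of the 14 ratios, are not reported here. The members and all lists were chosen with earlier results of these data known. Intervals rest on a variance of each gene that the fit drew toward that of other tested genes, so they are not the spread of the 4 pair ratios alone.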

Additional observations from a re-analysis of the deposited data

Results flagged for a closer look

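In the 68 groups made by 34 genes and 2 subsets, 7 had a library that stood apart from the other three by Dixon's criterion at 95%, where chance alone gives about 1 in 20. They fell in pairs 784, 779 and 793. In pair 784, *Acod1* was at 375 CPM in Tim-4- TAMs (the nearest library was at 69.2 CPM), *Slc25a1* at 63.9 CPM in Tim-4- TAMs (nearest 50.9) and *Cs* at 243 CPM in Tim-4+ TAMs (nearest 186). In pair 779, *Idh2* was at 152 CPM in Tim-4- TAMs (nearest 105), *Fh1* at 40.8 CPM in Tim-4- TAMs (nearest 36.8) and *Acly* at 1593 CPM in Tim-4+ TAMs (nearest 1247). In pair 793, *Mpc1* was at 18.8 CPM in Tim-4+ TAMs (nearest 21.6). The Tim-4- library of pair 779 also had the highest sum of epithelial tumor and mesothelial markers, 1961 CPM, and the part of such cells in its *Idh2* and *Fh1* values was not tested. Without pair 784 *Acod1* kept its direction, at 1.12.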

How the results depend on the processing

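The 5 higher and 1 lower members were the same genes with DESeq2's size factors, DESeq2 with the block, a filter of 50 counts, only the lane 2 counts, a join by symbol of the symbol-listed lane and, as alternatives chosen after seeing the data, TMM without mitochondrial genes and without lane 2 of the Tim-4- library of pair 779. With the symbol-listed lane left out, also chosen after seeing the data, *Pdhb* alone was lost (adjusted p = 0.0501 by edgeR's quasi-likelihood test).

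With no replicate block, 0 members were higher and 0 lower at an adjusted p under 0.05 by edgeR (147 and 85 of all genes), against 5 and 1 by edgeR with the block, and 4 and 2 members had an unadjusted p under 0.05 against 8 and 2 with the block. *Acod1* was then at 0.79 (adjusted p = 0.652) and *Timd4* at 5.25, still called. Leaving out 1 pair gave 0 to 4 higher and 0 to 2 lower members, while the share of all genes called was 7.65%, 0.937%, 21.3% and 4.73% without pairs 793, 784, 783 and 779: *Idh1*, *Acly* and *Acod1* without pair 793, 0 without pair 784 (5 higher and 1 lower at an unadjusted p under 0.05), *Acod1* without pair 779, and without pair 783 *Pdhb*, *Idh1*, *Acly* and *Acod1* higher with *Me1* and *Me2* lower. Over these the members' median ran from 0.06 to 0.11, *Acod1* from 0.79 to 1.12 and *Timd4* from 5.12 to 7.02 (adjusted p = 0.0843 by edgeR without pair 784).

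With no count filter 4 members were higher and 0 lower, and *Timd4* was at 6.07 (adjusted p = 0.148 by edgeR). With total counts per library 3 members were higher and 8 lower (4.68% and 29.1% of all genes), and the median fell to -0.28, still 0.08 above that of all genes. Above 0 with TMM and below 0 under that scaling were *Cs* (-0.24), *Dlat* (-0.28), *Dld* (-0.15), *Dlst* (-0.11), *Idh3b* (-0.27), *Idh3g* (-0.053), *Mdh2* (-0.16), *Mpc2* (-0.25), *Ogdh* (-0.31), *Pdk1* (-0.25), *Pdk2* (-0.33), *Slc25a1* (-0.042), *Sucla2* (-0.21) and *Suclg1* (-0.32).

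Small values crossed 0 elsewhere. With only lane 2, *Suclg1* was at -0.0083 and the ratios of *Pdk4* to *Pdk1* and to *Pdk2* at -0.13 and -0.027. With 1 pair left out in turn, values ran from -0.043 to 0.20 for *Dlat*, -0.017 to 0.15 for *Ogdh* and -0.012 to 0.11 for *Suclg1*, all below 0 without pair 784; from -0.068 to 0.011 for *Mpc1* and -0.15 to 0.10 for *Pdk2*, which changed sign without pair 783; and, changing sign without pair 779, from -0.090 to 0.029 for *Idh3a*, -0.0067 to 0.17 for *Pdk1*, -0.17 to 0.0068 for *Suclg2* and -0.30 to 0.081 for the ratio of *Pdk2* to *Pdk1*. The cause of these changes was not tested. Single genes outside the 34, other than *Timd4*, are given from the main fit only. How their calls depend on the processing is therefore not shown. *Pdk4*, with 15 to 246 counts per library, had the least depth among the members.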

Other observations

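Of 22 tested genes in 3 neighboring groups 4 passed, where 17.4% of all genes did. Of 6 lactate and monocarboxylate genes, *Bsg*, the chaperone of lactate transporters, rose in Tim-4+ TAMs, from 314 to 399 CPM in Tim-4- TAMs to 592 to 786 CPM (log2 fold change 0.88, SE 0.14, adjusted p = 0.00961 by edgeR's quasi-likelihood test), and the transporter gene *Slc16a7* also rose (0.49). *Ldha*, lactate dehydrogenase A, was at 0.05, and *Ldhb* at -1.31 with a wide error (SE 0.45, adjusted p = 0.0968 by edgeR's quasi-likelihood test). Of 8 tested carriers of cycle intermediates none passed, and the citrate importer *Slc13a5* was listed with no reads in any library. Of 8 genes of acetyl-CoA and ketone metabolism 2 passed, *Acaca*, which was higher, and *Acss1*, which makes acetyl-CoA from acetate in the mitochondrion and was lower (-0.62, SE 0.13, adjusted p = 0.0181 by edgeR's quasi-likelihood test), while *Acss2*, its cytosolic counterpart, was at -0.21 and did not pass.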
